A study of Mus musculus with 8 samples.

Results

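The mitochondrially encoded transcripts of mouse esophageal epithelium were compared between cells with a high and a low content of autophagic vesicles. They were taken as every row of the count table whose symbol starts with mt-, which gave 37 of 55276 symbols, and all 37 lie on the mitochondrial chromosome in the GENCODE M21 annotation of build GRCm38. These were 13 protein-coding genes, 2 ribosomal RNAs (rRNAs) and 22 transfer RNAs (tRNAs). Esophageal epithelium was peeled from muscle of C57BL6 mice aged 14 to 15 weeks, and the cells were stained and sorted. Every sorted cell was negative for DAPI, a dye that dead cells take up, and positive for integrin beta-1, an adhesion receptor of the basal layer. Cyto-ID, a dye of autophagic vesicles, parted these cells into a Cyto-ID Low and a Cyto-ID High fraction, and RNA of each was sequenced in bulk. The 8 libraries came from 2 female and 2 male animals, and each animal (Female1, Female2, Male1, Male2) gave 1 library of either fraction. No genotype or treatment set the fractions apart beyond the sort, so each comparison was between cells of the same animals.

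The mitochondrial genome is a small circle that is transcribed from both strands into long precursor RNAs. tRNAs lie between most of its genes and are cut out, which frees the messenger and ribosomal RNAs. Its messenger RNAs encode subunits of complexes I, III and IV of the respiratory chain and of the ATP synthase (complex V), and its rRNAs and tRNAs serve the ribosomes that translate them. All other subunits, all of complex II and the enzymes that copy and transcribe the circle are encoded in the nucleus, and mitochondria themselves can be delivered to autophagic vesicles, a process called mitophagy.

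Of the 37 genes, 28 lie on the plus strand and 9, mt-Nd6 and 8 tRNAs, on the minus strand. Neighbours touch or overlap in places, and this bears on what a read can be assigned to. mt-Nd5 (complex I) and mt-Nd6 (complex I) meet end to end on opposite strands and share 14 bases, at chrM:13552-13565. Their last 60 bases are shown 5′ to 3′ on the strand of each gene because these are the messenger RNAs that stood out below, with the shared bases in capitals (GENCODE M21, GRCm38; chrM:13506-13565 on the plus strand for mt-Nd5 and chrM:13552-13611 on the minus strand for mt-Nd6).
mt-Nd5: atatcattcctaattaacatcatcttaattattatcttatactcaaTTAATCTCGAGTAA
mt-Nd6: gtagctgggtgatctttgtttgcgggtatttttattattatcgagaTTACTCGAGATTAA

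mt-Atp8 and mt-Atp6, subunits of the ATP synthase, overlap on the same strand by 43 bases. The whole of mt-Atp8 (chrM:7766-7969, plus strand, 204 bases) is shown with the part it shares with mt-Atp6 in capitals, since reads from that part fit either gene.
mt-Atp8: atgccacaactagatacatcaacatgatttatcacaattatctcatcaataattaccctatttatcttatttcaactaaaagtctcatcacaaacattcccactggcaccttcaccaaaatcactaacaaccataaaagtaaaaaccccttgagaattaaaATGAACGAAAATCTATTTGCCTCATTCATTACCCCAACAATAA

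The rRNAs, like the protein-coding genes, carry only short runs of A, the base that poly(A) selection pulls down. The longest run was 5 bases in mt-Rnr1 and 7 in mt-Rnr2, beside 3 (mt-Nd6) to 8 (mt-Nd2) in the protein-coding genes. The stretches around the longest run in each, in capitals, lie at chrM:680-734 in mt-Rnr1 and chrM:1463-1519 in mt-Rnr2, both on the plus strand. Whether these libraries were made by poly(A) selection is not given in the sources used here.
mt-Rnr1: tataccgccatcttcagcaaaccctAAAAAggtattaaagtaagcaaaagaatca
mt-Rnr2: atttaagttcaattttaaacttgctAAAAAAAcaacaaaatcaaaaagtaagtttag

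The 3 tRNAs with enough counts to test carry proline (mt-Tp, chrM:15356-15422), cysteine (mt-Tc, chrM:5192-5257) and glutamate (mt-Te, chrM:14071-14139). All 3 lie on the minus strand, opposite most messenger RNAs. The anticodon is in capitals.
mt-Tp: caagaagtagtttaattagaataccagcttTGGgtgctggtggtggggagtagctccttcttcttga
mt-Tc: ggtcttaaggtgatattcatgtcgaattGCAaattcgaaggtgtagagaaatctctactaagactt
mt-Te: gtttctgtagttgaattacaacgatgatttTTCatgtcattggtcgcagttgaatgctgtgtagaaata

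Depth was similar in both fractions, with 26285150 to 28599954 counts per Low and 27486049 to 29301054 per High library, of which 593674 to 758961 and 357013 to 531419 were mitochondrial. Markers of basal keratinocytes were present in both fractions, with all 10 lower in Cyto-ID High, and all 10 markers of suprabasal keratinocytes were higher there (edgeR adjusted p under 0.05). The suprabasal keratins Krt4 and Krt13 took 1.71% ± 0.77 of all counts in Low and 12.1% ± 1.5 in High libraries (SD, n = 4 each). TMM scaling, which sets libraries level on the bulk of their genes, gave factors of 1.22 ± 0.07 and 0.828 ± 0.118 (SD, n = 4 each). The median log2 difference over 17344 tested genes was -0.09 with TMM and -0.64 when libraries were scaled by total counts alone, a shift of -0.55. Differences of the members are therefore given on both scales where the direction depends on it. The Cyto-ID High library of Male2 stood apart, with the lowest scaling factor (0.679), the fewest genes with a count (22208) and the lowest summed level of fibroblast markers (36.6 CPM against 147 to 479.9 in the other 7). Muscle markers ran from 22.1 to 42.3 CPM in Low and from 2.88 to 57.8 in High, and they and the leukocyte, endothelial and erythroid markers were also lowest in that library. Some markers of these cells moved with the fraction: Dcn (fibroblast, log2 difference -2.87, edgeR adjusted p = 9.1e-05), Cd207 (-2.24, edgeR adjusted p = 0.00585) and H2-Ab1 (-1.41, edgeR adjusted p = 0.00800) fell, and the leukocyte marker Cd52, which overlaps Crybg2, rose (0.93, edgeR adjusted p = 0.0189). These were 1 of 6 fibroblast and 3 of 7 tested leukocyte markers. Female2 was the animal with gastric epithelium markers, at 17.3 CPM in its Low and 108 in its High library, where the other 6 libraries had at most 0.977. The part of these cells in the results was not tested.

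Mitochondrial transcripts took a smaller share of all counts in the Cyto-ID High fraction of every animal. In the Low libraries of Female1, Female2, Male1 and Male2 the share was 2.34%, 2.13%, 2.77% and 2.30%. In their High libraries it was 1.58%, 1.61%, 1.81% and 1.25%. The lowest Low library lay above the highest High library, so the fractions did not overlap. The means were 2.38% ± 0.28 and 1.56% ± 0.23 (SD, n = 4 each), a ratio of 1.53, and the difference of -0.822 percentage points had a two-sided exact permutation p of 0.0286, the smallest that 4 against 4 libraries can give (0.0381 after Benjamini-Hochberg adjustment over 4 shares). Without High Male2 the mitochondrial share of counts differed by -0.717 (exact permutation p = 0.0286). The ratio of Low to High within an animal was 1.48, 1.32, 1.53 and 1.85 in that order. In bulk RNA, fewer cells rich in these transcripts and less of them per cell cannot be told apart.

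The size of this difference depended on the scaling of the libraries. Per TMM-scaled library size the mitochondrial counts were 1.97% ± 0.30 in Low against 1.89% ± 0.17 in High libraries (SD, n = 4 each), a difference of -0.0755 percentage points (exact permutation p = 0.743). Female2 went from 1.63% to 2.03% on this scale, and the other 3 animals were lower in High. Female2 was also the animal with gastric markers (17.3 CPM in Low and 108 in High), and their part in this was not tested. With Krt4 and Krt13 left out of the totals, the share was 2.42% in Low and 1.77% in High and still did not overlap (difference -0.650, exact permutation p = 0.0286). With the 10 most abundant nuclear genes of each library left out, it was 2.57% and 1.87% (difference -0.693, exact permutation p = 0.0286). The share was thus lower in High also without these abundant genes, while on the scale that levels most genes the mitochondrial totals overlapped. By total counts the median log2 difference was -0.63 over the 15 rRNA and protein-coding members and -0.64 over all tested genes. The lower share was therefore not particular to the members, and its cause was not tested.

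**Figure D1:**
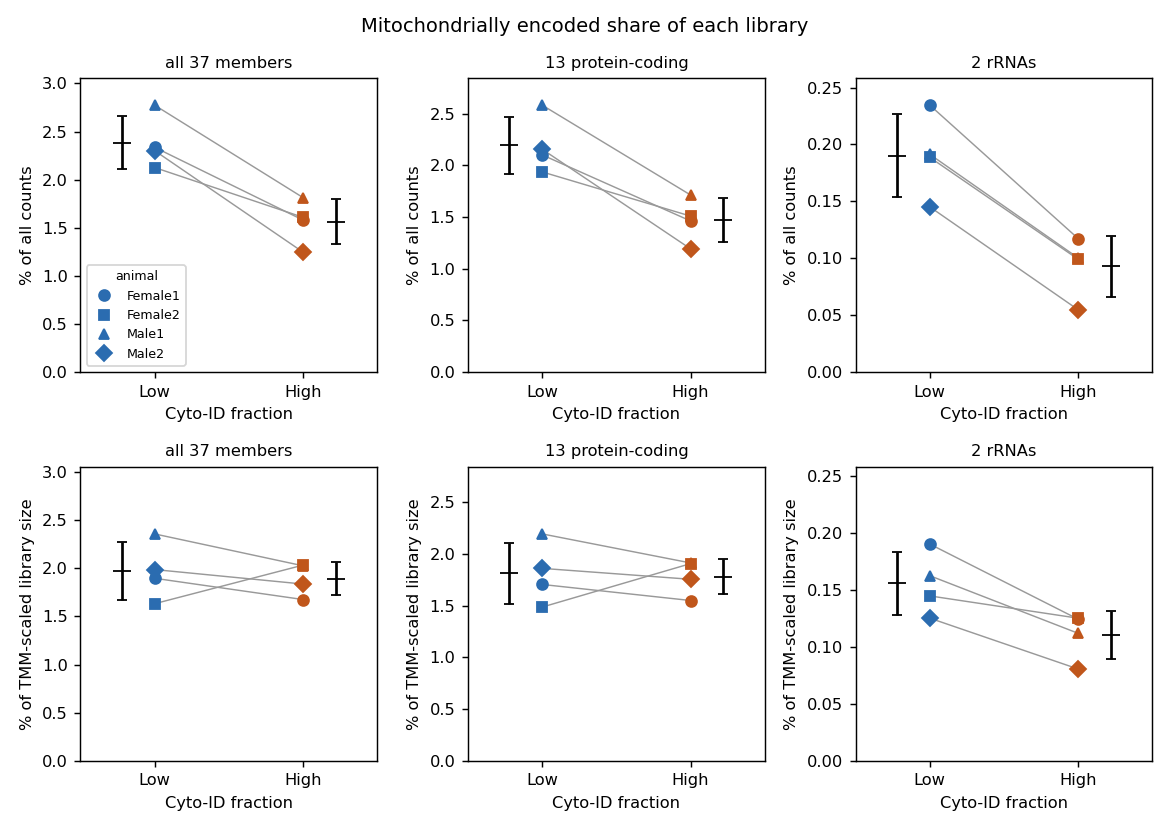
Percent of all counts (upper row) and of the TMM-scaled library size (lower row) taken by all 37 members, the 13 protein-coding genes and the 2 rRNAs, with a line joining the Low and High library of each animal and bars for mean ± SD (n = 4). In the upper row every line slopes down and the fractions do not overlap; in the lower row only the rRNA lines all slope down, and the lines of Female2 slope up for all members and for protein-coding genes.

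By class, the protein-coding genes held 2.19% ± 0.28 of all counts in Low against 1.47% ± 0.21 in High libraries (SD, n = 4 each; exact permutation p = 0.0286, adjusted 0.0381). On the TMM scale they held 1.81% ± 0.30 and 1.78% ± 0.17, a difference of -0.0303 points (exact permutation p = 0.886). The rRNAs held 0.190% ± 0.037 and 0.0928% ± 0.0267 of all counts (SD, n = 4 each), a ratio of 2.05 (exact permutation p = 0.0286, adjusted 0.0381; 0.0571 unadjusted when High Female2, High Male1 or High Male2 was left out). Per TMM-scaled size the rRNAs were also lower, at 0.156% ± 0.028 against 0.111% ± 0.021 (difference -0.0452, exact permutation p = 0.0286). On this scale the difference did not pass the correction (adjusted 0.114 over 4 shares). There the lowest Low and the highest High library differed by less than the third digit (0.1253% and 0.1252%). Within each animal the ratio of rRNA to protein-coding counts was lower in High, by 0.48 (Female1), 0.57 (Female2), 0.34 (Male1) and 0.55 (Male2) on the log2 scale. The animal differences had a mean of -0.48 and an SD of 0.10, and their exact sign-flip permutation p was 0.125, the smallest that 4 pairs allow. Without the pairing the ratios of the fractions overlapped, and the exact permutation p was 0.114 (0.190 adjusted over 5 ratios).

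mt-Rnr1, the RNA of the small mitochondrial ribosomal subunit, fell in Cyto-ID High under both scalings. Its level was 741, 547, 628 and 412 CPM (counts relative to the TMM-scaled library size) in the Low libraries of Female1, Female2, Male1 and Male2. In the High libraries it was 394, 438, 375 and 244 CPM. Each High library lay below the Low library of its animal, and across animals the fractions met only where Low Male2 lay below High Female2. The log2 difference was -0.69 (SE 0.21, edgeR adjusted p = 0.0208) with TMM and -1.23 (edgeR adjusted p = 0.00192) by total counts. The call was lost when any of 4 libraries was left out: Low Female1 (edgeR adjusted p = 0.0600), Low Male1 (0.0670), High Female1 (0.0514) or High Male2 (0.0519).

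mt-Rnr2, the RNA of the large subunit, stood at 1163, 902, 998 and 841 CPM in the Low libraries of Female1, Female2, Male1 and Male2. It stood at 849.8, 814, 745 and 562 CPM in the High libraries. Here only High Female1 reached above the lowest Low library. The log2 difference of -0.40 (SE 0.17) did not pass with sex as the covariate (edgeR adjusted p = 0.0817), but passed with the animal as a block (edgeR adjusted p = 0.0392) and by total counts (-0.94, edgeR adjusted p = 0.00285). Rn7sk, a nuclear RNA without a poly(A) tail, was highest in Female1, at 14.0 CPM in Low and above that in High, against 2.53 to 6.80 in the other 6 libraries; the rRNA part of the mitochondrial counts was also highest in that animal. Between fractions it differed by -0.09 (SE 0.54, edgeR adjusted p = 0.915), and of the nuclear-retained RNAs tested, Malat1 was higher in High in 4 of 4 animals (0.59, edgeR adjusted p = 0.400; 0.52 with the animal as a block, edgeR adjusted p = 0.0155; 0.12 by total counts), while Neat1 (0.18; -0.40 by total counts) and Meg3 (0.25; -0.20 by total counts) changed sign with the scaling. The part of RNA quality or selection in the rRNA result was not tested.

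Of the 7 subunits of complex I, the NADH dehydrogenase that feeds electrons into the chain, mt-Nd5 rose in Cyto-ID High when libraries were levelled with TMM. Its level was 568, 611, 718 and 775 CPM in the Low libraries of Female1, Female2, Male1 and Male2, and 744, 1076, 899 and 1053 in the High libraries. Every animal was higher in High, though High Female1 lay below Low Male2. The log2 difference was 0.51 (SE 0.17, edgeR adjusted p = 0.0353), and by total counts it turned to -0.07 (edgeR adjusted p = 0.655). The call was lost with no filter on low counts (0.115), and when Low Female1 (0.0831), Low Female2 (0.0572), Low Male1 (0.0634), High Female2 (0.109) or High Male2 (0.0739) was left out.

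mt-Nd6, the messenger RNA of the minus strand, had 214, 187, 209 and 255 CPM in the Low and 278, 319, 272 and 254 in the High libraries. It was higher in the High library of Female1, Female2 and Male1 and level in Male2. Its log2 difference was 0.38 (SE 0.16, edgeR adjusted p = 0.073) with TMM and -0.18 (edgeR adjusted p = 0.338) by total counts, and passed in neither. It passed with RLE factors (edgeR adjusted p = 0.0392), with DESeq2 (adjusted p = 0.0129) and without Low Male2 (edgeR adjusted p = 0.0280). The strandedness of the counting is not given in the sources used here. Without strand, reads from the 14 bases that mt-Nd5 and mt-Nd6 share, and reads antisense to either gene, cannot be told apart.

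The other complex I subunits did not pass with TMM. mt-Nd1 had 1086, 919, 1157 and 1098 CPM in Low and 951, 1148, 1037 and 901 in High (log2 difference -0.08, SE 0.16). mt-Nd2 had 507, 514, 701 and 638 CPM in Low and 460.3, 652, 537 and 523 in High (-0.11, SE 0.18). Both were higher in High in Female2 and lower in the other 3 animals. mt-Nd3 had 208, 149.7, 199 and 168 CPM in Low and 178, 170.3, 162 and 89.2 in High (-0.29, SE 0.22), with the lowest value in Male2. With each library left out its log2 difference ran from -0.41 to -0.09. mt-Nd4l had 113, 134, 183 and 137 CPM in Low and 122, 184, 167 and 204 in High (0.26, SE 0.18; -0.32 by total counts). mt-Nd4, which follows mt-Nd4l and overlaps it by 7 bases, had 981, 995, 1453 and 1229 CPM in Low and 942, 1419.8, 1309 and 1202 in High (0.08, SE 0.19; -0.49 by total counts).

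mt-Cytb encodes cytochrome b, the mitochondrially encoded subunit of complex III. It had 1521, 1439.9, 1949 and 1738 CPM in the Low and 1354, 1880.3, 1682 and 1819 in the High libraries. The ranges overlapped almost whole, with a log2 difference of 0.03 (SE 0.17, edgeR adjusted p = 0.919) under TMM, against -0.55 (edgeR adjusted p = 0.00743) by total counts.

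The 3 subunits of complex IV, cytochrome c oxidase, include the most abundant transcript of the set. mt-Co1 had 5022, 4323, 6657 and 5538 CPM in Low and 4723, 5706, 6129 and 5638 in High (log2 difference 0.05, SE 0.17, edgeR adjusted p = 0.835; -0.51 by total counts, adjusted p 0.0247). mt-Co2 had 2164, 1622, 2449 and 2076 CPM in Low and 1772, 2014, 2081 and 1910.2 in High (-0.09, SE 0.17). mt-Co3 had 2187, 1743, 2618 and 2040.3 CPM in Low and 1825, 1749, 1964 and 1478 in High (-0.29, SE 0.19, edgeR adjusted p = 0.238), the lowest of the 3. For complex V, mt-Atp6 had 2239, 1965, 3219.7 and 2636 CPM in Low and 1934, 2377, 2591 and 2199 in High (-0.13, SE 0.18). mt-Atp8 had 243, 259.9, 428 and 279.6 CPM in Low and 215, 372, 301 and 282 in High (-0.03, SE 0.22). In all 5 the Low and High libraries overlapped, and in Female2 the High library was at or above the Low library.

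**Figure D2:**
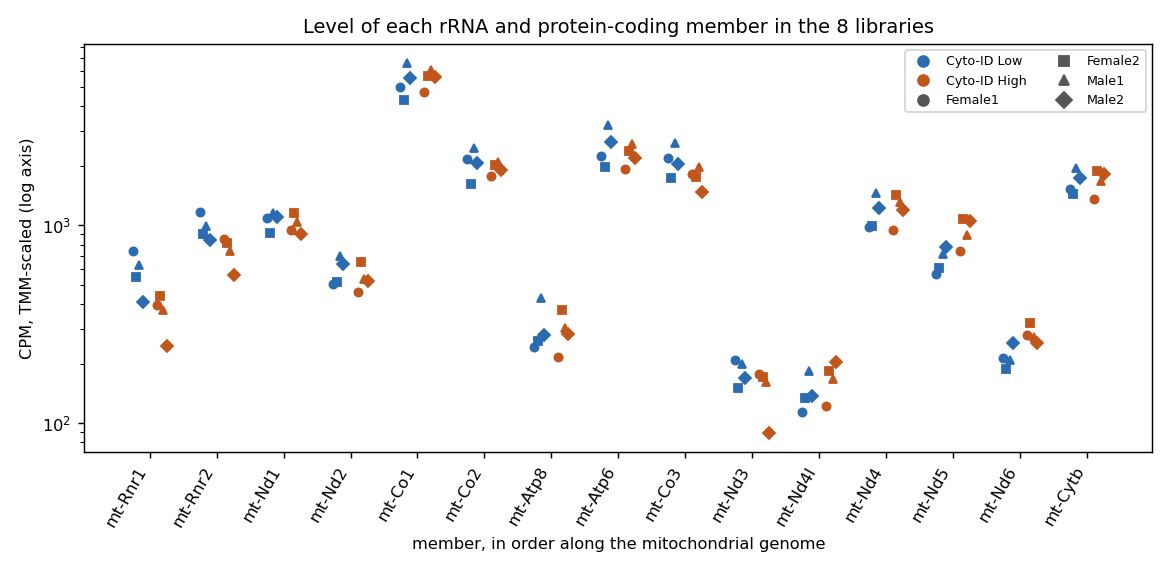
TMM-scaled CPM, on a log axis, of the 2 rRNAs and 13 protein-coding genes in genome order, with 1 point per library (colour for the fraction, shape for the animal). The points of the fractions interleave for most protein-coding genes, while mt-Rnr1 is shifted down and mt-Nd5 up in Cyto-ID High.

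Among the 18 members that passed the filter on low counts, 1 was called lower (mt-Rnr1) and 1 higher (mt-Nd5) under TMM. Over all tested genes 48.7% were called, 25.3% lower and 23.4% higher. By total counts 12 of the 18 were called lower and 0 higher, beside 61.7% of all tested genes called, 49.1% lower and 12.6% higher. The 12 were both rRNAs and all protein-coding genes other than mt-Nd4l, mt-Nd5 and mt-Nd6. As shares of all counts, 10 of 13 protein-coding genes and both rRNAs lay lower in every High than in every Low library, beside 48.1% of tested genes (60.3% in either direction). With the animal as a block, 1 member was called higher and 2 lower, beside 53.8% of all tested genes called, 25.4% higher and 28.5% lower. In TMM-scaled CPM, 0 of the 13 separated the fractions, beside 48.6% of tested genes.

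**Figure D3:**
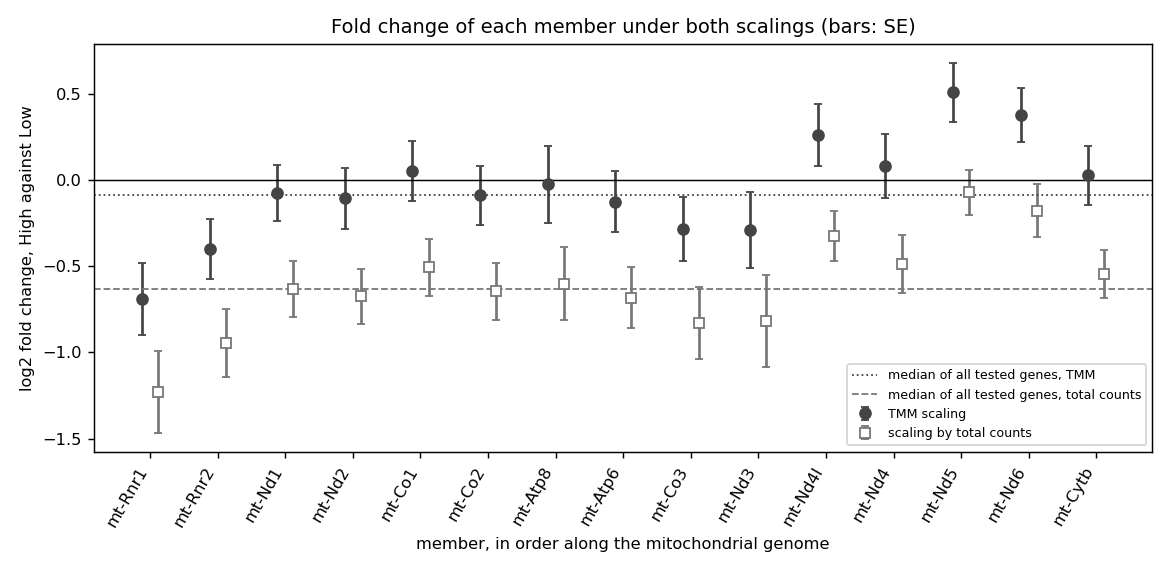
Log2 difference of Cyto-ID High against Low for the 2 rRNAs and 13 protein-coding genes in genome order, with TMM (filled) and total-count (open) scaling; bars are SE, and the dotted and dashed lines are the medians of all tested genes at -0.09 and -0.64. Every total-count value lies below its TMM value, and in both sets the rRNAs are lowest and mt-Nd5 highest.

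The tRNAs were scarcely captured. All 22 together had 341 to 379 counts in a Low library and 175 to 383 in a High library, and without mt-Tp 51 to 141 remained. mt-Tp had 8.00, 6.90, 8.39 and 8.06 CPM in Low and 9.34, 9.06, 9.88 and 6.38 in High, with High above Low in all animals but Male2 (log2 difference 0.15, SE 0.18, edgeR adjusted p = 0.554; -0.39 by total counts). mt-Tc (-0.09, SE 0.45, edgeR adjusted p = 0.899) and mt-Te (1.23, SE 0.56, edgeR adjusted p = 0.0979) also did not pass. The other 19 tRNAs had 0 to 21 counts in any library and were not tested. The tRNA share was 0.00133% ± 0.00007 in Low and 0.00102% ± 0.00033 in High (SD, n = 4 each), lower in 4 of 4 animals, and did not pass (exact permutation p = 0.114). Only High Female1 reached into the Low range, and without it the difference was -0.000439. The exact permutation p was then 0.0286, the smallest that 3 against 4 libraries can give. Leaving out the only overlapping library fixes that value, so it adds no support. Per TMM-scaled size the difference had the other sign (0.000112, exact permutation p = 0.457).

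Per kilobase of transcript, mt-Co1 and mt-Atp6 had the highest levels, and their order turned between the fractions. In Cyto-ID Low the mean was 3693 CPM per kb for mt-Atp6 and 3485 for mt-Co1, and in Cyto-ID High 3341 and 3592. mt-Co2 (2940.0 over all 8 libraries) and mt-Co3 (2488) followed, then mt-Cytb and mt-Atp8 (1453 and 1483 in Low, 1472 and 1434 in High), mt-Nd1 (1084) and mt-Nd4 (865). The remaining protein-coding genes and the rRNAs lay between 366 and 617 in Low, where mt-Nd5 was lowest, and between 379.9 and 570.4 in High, where mt-Rnr1 was lowest. mt-Tp, the highest of the tRNAs, lay at 123.

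Ratios inside the mitochondrial counts do not depend on the scaling of libraries. mt-Nd5 made up 2.99%, 3.74%, 3.05% and 3.90% of the mitochondrial counts in the Low libraries of Female1, Female2, Male1 and Male2, and 4.44%, 5.29%, 4.44% and 5.73% in the High libraries, with no overlap. mt-Nd6 made up 1.13%, 1.15%, 0.886% and 1.28% in Low and 1.66%, 1.57%, 1.34% and 1.38% in High, again with no overlap. Expressed per mitochondrial count, 43.4% of all tested genes separated the fractions in this way, 21.9% with High above Low. The ratio of mt-Nd6 to the other protein-coding genes was higher in High by 0.40 on the log2 scale, with animal values of 0.52, 0.42, 0.58 and 0.08 (exact permutation p = 0.0286, 0.143 adjusted over 5 ratios), so it did not pass the correction.

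The next members overlapped between the fractions. mt-Rnr1 went from 3.00% ± 0.80 of the mitochondrial counts in Low to 1.92% ± 0.44 in High, and mt-Rnr2 from 5.03% ± 0.95 to 3.95% ± 0.84 (SD, n = 4 each). In both fractions the rRNA part was highest in Female1 and lowest in Male2. The ratio of mt-Rnr1 to mt-Rnr2 was lower in High in 4 of 4 animals (log2 difference -0.28, exact permutation p = 0.0857, adjusted 0.190). mt-Co1 went from 27.3% ± 0.9 to 29.3% ± 1.4 and was higher in 4 of 4 animals, whereas mt-Co3 went from 10.9% ± 0.5 to 9.31% ± 1.26 and was lower in 4 of 4. The ratio of complex I to complex IV subunits was higher in 4 of 4 animals by a mean log2 of 0.14 (exact permutation p = 0.2, adjusted 0.25). The ratio of tRNA to protein-coding counts differed by 0.13 with 2 animals in each direction (exact permutation p = 0.6).

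**Figure D4:**
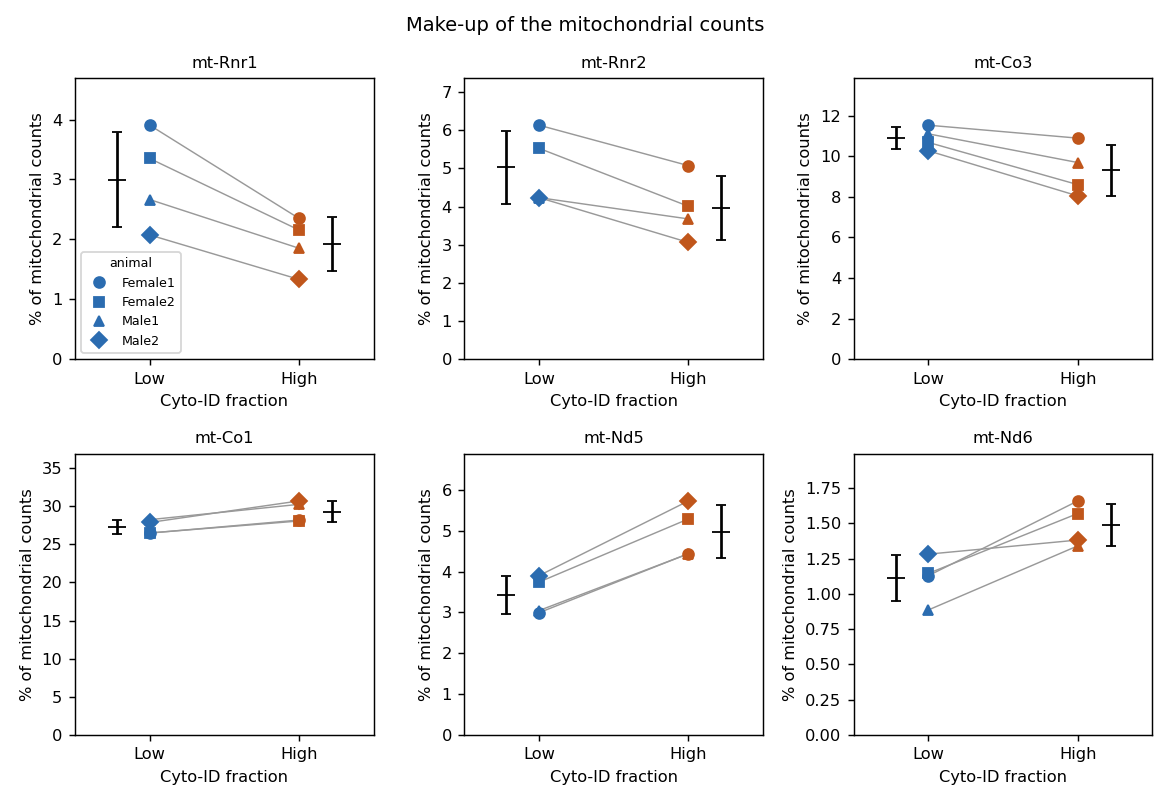
Percent of the mitochondrial counts taken by 6 members in each library, with the Low and High library of an animal joined and bars for mean ± SD (n = 4). The lines of mt-Nd5, mt-Nd6 and mt-Co1 slope up and those of mt-Rnr1, mt-Rnr2 and mt-Co3 slope down from Low to High in all 4 animals.

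Across the 13 protein-coding genes and 2 rRNAs, the TMM log2 difference tended to be higher further along the genome, with mt-Rnr1 (-0.69) and mt-Rnr2 (-0.40) near its start, and mt-Nd5 (0.51), mt-Nd6 (0.38) and mt-Cytb (0.03) near its end. The order was not strict, as mt-Nd1 (-0.08) and mt-Nd2 (-0.11) lay above mt-Co3 and mt-Nd3 (-0.29 each), which are further along. Pearson's r with the position on chrM was 0.72 and Spearman's rho 0.67 over these 15 genes. The genes share all 8 libraries and most share precursor RNAs, so these values describe the set and carry no p. With transcript length r was 0.10, with GC content 0.20, with the longest run of A -0.07 and with the level per kilobase -0.09.

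Nuclear copies of mitochondrial genes can take reads from them. Among the other transcripts of GENCODE M21, 11 match 9 of the members at 95% identity or more over at least 100 bases, and 7 of these lie together on chromosome 1. Gm28661 (mt-Co2), Gm10925 (mt-Atp6), Gm28437 (mt-Co3) and Gm10222 (mt-Nd4l) are 100% identical to the stretch they match, and so is Gm28439 over 876 bases of mt-Nd4. Gm28438 differs from mt-Nd3 by a single substitution, T3C, counted from the 5′ end of mt-Nd3 (base of mt-Nd3 first). The first 60 bases of mt-Nd3 (chrM:9459-9518, plus strand) and of the copy (chr1:24613060-24613119, minus strand) are shown with the differing base in capitals.
mt-Nd3: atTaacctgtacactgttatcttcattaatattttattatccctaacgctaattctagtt
Gm28438: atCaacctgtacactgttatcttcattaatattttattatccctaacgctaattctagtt

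Counts had been assigned to these copies. Of the counts of mt-Co2 and Gm28661 together, Gm28661 held 9.91% to 12.8% in the Low and 10.3% to 12.1% in the High libraries. The corresponding ranges were 9.61% to 13.7% and 9.47% to 11.9% for Gm10925 with mt-Atp6, 8.58% to 12.5% and 8.88% to 9.34% for Gm28437 with mt-Co3, 10.3% to 14.7% and 10.7% to 12.8% for Gm28438 with mt-Nd3, and 9.82% to 14.0% and 9.37% to 13.3% for Gm10222 with mt-Nd4l. They were 4.96% to 6.79% and 4.92% to 6.21% for Gm28439 with mt-Nd4, and 3.66% to 4.74% and 3.80% to 5.05% for Gm13341, the other copy of mt-Co2. For mt-Co1 the larger part, that of Gm29216, was 2.44% to 3.51% and 2.74% to 3.14%. The levels of these members, and so the order of mt-Co1 and mt-Atp6, are uncertain. Those parts do not bound the uncertainty, as the handling of reads that fit both places is not given in the sources used here. The ranges of these parts overlapped between the fractions. For mt-Nd5 the closest copy, Gm4076, held at most 0.174%, and mt-Rnr1, mt-Rnr2 and mt-Nd6 had no annotated copy at this identity. With the copies' counts added to their members, the same single gene was called in each direction, and the mitochondrial share was 2.53% in Low and 1.65% in High.

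Whether the fraction difference depended on sex was tested as an interaction with 2 animals of each sex. With edgeR, 0 of 17344 genes passed after adjustment and 19 had an unadjusted p under 0.05. Of the 18 members, 0 had such a p (smallest 0.200). With the animal as a block these counts were 0 and 38, and the smallest p of a member was 0.132. Both 19 and 38 are far fewer genes than chance alone gives under 0.05, so these tests could hardly flag a gene. They do not show that the difference was the same in both sexes.

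The nuclear genes of the same complexes were described by their calls on both scales. Of 71 nuclear subunits of complexes I, III, IV and V, 28 rose and 0 fell with TMM, beside 23.4% of all tested genes higher and 25.3% lower. Of the 71, 12 had a negative log2 difference, and the median was 0.32 against -0.09 over all tested genes. By total counts 1 rose and 23 fell, beside 12.6% of all tested genes higher and 49.1% lower, with a median of -0.23 against -0.64. The median of these subunits thus lay above that of all tested genes. The change of scale moved both medians by nearly the same amount (-0.56 and -0.55), so the second scale is no separate support. With the animal as a block 1 of the 71 fell, Ndufb11 (-0.34, edgeR adjusted p = 0.0252). With TMM, 17 of 36 complex I genes rose, among them Ndufc1 (8.76 to 17.5 CPM, log2 difference 0.99, SE 0.13, edgeR adjusted p = 0.000199) and Ndufs5 (4.00 to 7.17 CPM, 0.84, SE 0.18, edgeR adjusted p = 0.00399), both accessory subunits. For complex III 5 of 9 rose, including Uqcrq (48.3 to 91.6 CPM) and Uqcr11 (23.4 to 33.2 CPM), the second of which was 0.51 with TMM (edgeR adjusted p = 0.0336) and -0.04 by total counts. The Uqcr11 call was also lost without Low Female2 (0.0831), Low Male1 (0.0959), Low Male2 (0.0568), High Female1 (0.101), High Male1 (0.0592) or High Male2 (0.0764). For complex IV 4 of 11 rose, including Cox6a1 (82.0 to 149 CPM) and Cox6b1 (98.7 to 152 CPM). For complex V 2 of 15 rose, a smaller share than the 23.4% of all tested genes. They were Atp5d (172 to 282 CPM, uncertain as it overlaps Cbarp) and Atp5k (26.4 to 43.1 CPM). By total counts Ndufs5, Uqcrq, Cox6a1, Cox6b1, Atp5d and Atp5k kept a positive log2 difference but did not pass (edgeR adjusted p from 0.0681 to 0.709), and the median of each of these lists turned negative (-0.22 for complex I, -0.20 for III, -0.21 for IV and -0.30 for V).

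Complex II has no mitochondrially encoded subunit. With TMM, 2 of its 4 genes fell and 0 rose (median -0.26; -0.83 by total counts). Sdhb, the iron-sulfur subunit, went from 65.6 to 45.9 CPM (log2 difference -0.52, SE 0.12, edgeR adjusted p = 0.00651), and Sdhd, a membrane anchor, from 67.0 to 40.2 CPM (-0.74, SE 0.12, edgeR adjusted p = 0.000608). No test compared the lists with each other.

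Among the genes that copy and transcribe the mitochondrial genome, the calls were all in 1 direction. With TMM 8 of 16 fell and 0 rose, all 16 had a negative log2 difference, and the median was -0.61 (-1.14 by total counts); 12 fell with the animal as a block. Tfam, which packages the genome and starts its transcription, went from 26.6 to 13.8 CPM (-0.96, SE 0.15, edgeR adjusted p = 0.000646). Polrmt, the mitochondrial RNA polymerase, went from 27.6 to 16.5 CPM (-0.75, edgeR adjusted p = 0.00355), Twnk, the helicase, from 20.1 to 8.92 CPM (-1.16, edgeR adjusted p = 0.000824) and Top1mt, the topoisomerase, from 15.7 to 5.37 CPM (-1.55, edgeR adjusted p = 0.000103). Polg, the DNA polymerase, went from 59.9 to 40.8 CPM (-0.56, edgeR adjusted p = 0.0205; 0.0502 without Low Male1 and 0.0634 without High Female2). Tfb2m, the transcription factor that opens promoters, had 17.3 and 13.3 CPM and did not pass (-0.38, edgeR adjusted p = 0.159; 0.0273 with the animal as a block, 0.0412 without Low Female1 and 0.00132 by total counts). Twnk overlaps Mrpl43, Polg overlaps Fanci and Top1mt overlaps Gm15945 in the annotation, so their counts are uncertain.

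Genes that process or hold mitochondrial RNA and charge its tRNAs were mixed. Of 34 processing and stability genes 14 fell and 4 rose with TMM (median -0.36; -0.94 by total counts). Mrm3, an rRNA methyltransferase that overlaps Glod4, went from 15.8 to 4.75 CPM (-1.74, edgeR adjusted p = 3e-05), and Fastkd1 from 10.7 to 3.45 CPM (-1.64). Lrpprc and Slirp, which together bind and stabilise mitochondrial messenger RNAs, did not pass with TMM, at 55.3 and 50.4 CPM (-0.14, edgeR adjusted p = 0.438) and 9.67 and 10.7 CPM (0.14, edgeR adjusted p = 0.479; -0.40 by total counts). By total counts Lrpprc passed (-0.71, edgeR adjusted p = 0.000796). Slirp overlaps Alkbh1 and Snw1. Of 19 aminoacyl-tRNA synthetases 7 fell and 2 rose (median -0.33; -0.91 by total counts). In the fit blocked by animal 8 fell and 5 rose. Wars2 went from 11.1 to 4.28 CPM (-1.38), and Gars, which serves the cytosol as well, from 75.4 to 220.3 CPM (1.55, edgeR adjusted p = 0.000128).

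Of 8 regulators of mitochondrial biogenesis 3 fell and 1 rose with TMM (median -0.47; -1.05 by total counts). The coactivator Ppargc1b went from 9.34 to 2.44 CPM (-1.94, edgeR adjusted p = 5.3e-05), while Ppargc1a had 2.86 and 2.03 CPM and did not pass (-0.49, edgeR adjusted p = 0.274). By total counts Ppargc1a passed (-1.05, edgeR adjusted p = 0.0318), and with each library left out its TMM value ran from -0.74 to -0.22. The nuclear receptor Esrra, which overlaps Trmt112 and Mir6990, rose from 47.6 to 85.1 CPM (0.83, edgeR adjusted p = 0.00353), and did not pass by total counts (0.25, edgeR adjusted p = 0.197). Of 14 mitophagy genes 1 fell and 0 rose with TMM (median -0.04; -0.57 by total counts). In the fit blocked by animal 3 fell (Fundc1, Pink1 and Usp30) and 1 rose (Fkbp8, 0.39; -0.18 by total counts with sex as the covariate). The gene called with TMM and sex was Fundc1, a receptor on the outer membrane, from 21.2 to 13.9 CPM (-0.61, edgeR adjusted p = 0.0303). The call was lost without Low Female2 (0.0951), Low Male1 (0.0549), Low Male2 (0.0823), High Female1 (0.0774), High Male1 (0.0873) or High Male2 (0.0656). For all of these lists, 25.3% of all tested genes fell and 23.4% rose on this scale. Basal markers fell and suprabasal markers rose beside all of these lists, with summed levels of 22032 to 26255 CPM in Low and 2882 to 4577 in High for the basal and 8652 to 26064 and 146676 to 247049 for the suprabasal markers, and their part in the lists was not tested.

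**Figure D5:**
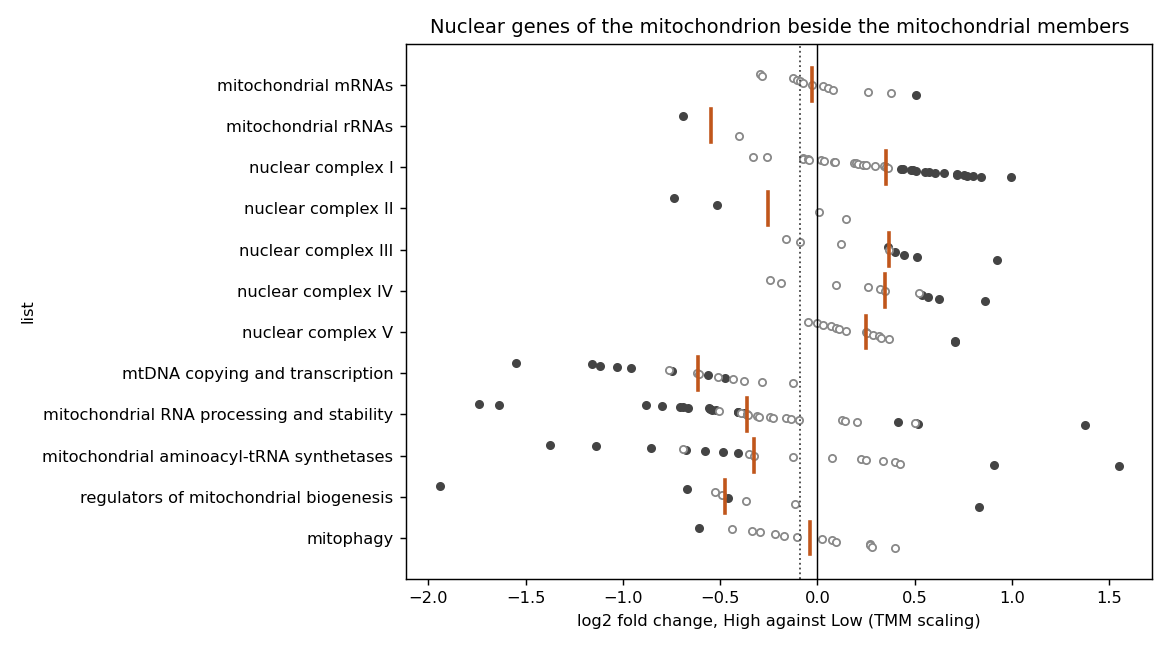
TMM log2 difference of Cyto-ID High against Low for each tested gene of the mitochondrial and nuclear lists; filled points are called genes, the vertical mark is the list's median and the dotted line the median of all tested genes (-0.09). The medians of complexes I, III, IV and V lie between 0.25 and 0.37, and that of the genes copying and transcribing mitochondrial DNA at -0.61; by total counts the medians of those 4 complexes are negative.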

How the data were processed

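Gene counts for the 8 libraries were deposited by the authors as 1 table of raw counts per symbol, whole numbers with no normalization. The submitters' processing notes name STAR 2.7.3, DESeq2 and GRCm38. The counting tool, the annotation, the strandedness and the selection of RNA are not given in the sources used here. No row lacked a gene name. The labels name each animal and so count as separate samples; intervals cover the spread between these samples.

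The analysis used edgeR 4.0.16 in R 4.3.3. filterByExpr by fraction kept 17344 genes, libraries were scaled by TMM, and Cyto-ID High was tested against Low with glmQLFit and glmQLFTest and sex as a covariate. Benjamini-Hochberg adjustment ran over all tested genes, with a threshold of 0.05. CPM use the TMM-scaled size, log2 CPM a prior count of 2. Shares and ratios, which are single values per library, were compared by two-sided exact permutation over the 70 splits of 4 against 4. The fits were tested on simulated data.

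The members and all gene lists were chosen with earlier results of these data known. Given in every library were the protein-coding genes, the rRNAs and the tRNAs with a mean of at least 5 CPM. Named from the lists were up to 2 called genes with the largest change in each (mean of at least 5 CPM) and 8 fixed genes. Also named were mt-Tc and mt-Te as tested tRNAs. Ndufb11, Pink1, Usp30 and Fkbp8 were added because they were called with the animal as a block but not with sex. Libraries of an animal were taken as pairs from the animal's name. Their deviations from the fraction means correlated at 0.93, 0.56, 0.45 and 0.63 over 15 members and at 0.43, 0.32, -0.02 and 0.28 over all genes (Female1, Female2, Male1, Male2).

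Alternatives were RLE factors, total counts, TMM on nuclear genes, no filter, at least 10 counts in every library, DESeq2 1.42.0, limma-voom (limma 3.58.1), no covariate, the animal as a block and each library left out. Adding the nuclear copies' counts was chosen after seeing the data. Coordinates and sequences come from GENCODE M21 (GRCm38), and only its annotated transcripts were searched for copies.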

Additional observations from a re-analysis of the deposited data

Results flagged for a closer look

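One value lay far from the others of its group among 54 groups of 4 libraries examined, where chance alone flags about 1 group in 20. The level of mt-Te, the glutamate tRNA, in the Cyto-ID High library of Male2 was 1.03 CPM, against 0.435 to 0.496 in the other 3 High libraries. It rests on 20 counts, against 10 to 13 in the other 3, and that library has the lowest TMM scaling factor (0.679).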

How the results depend on the processing

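Scaling moved the most values. With total counts 0 members were called higher and 12 lower; with RLE factors and with DESeq2 2 were called higher (mt-Nd5 and mt-Nd6), and with no filter on low counts 0. Per TMM-scaled size the difference in share was -0.0755 for all members, -0.0303 for protein-coding genes and 0.000112 for tRNAs. List medians by total counts were -0.22 (complex I), -0.83 (II), -0.20 (III), -0.21 (IV), -0.30 (V), -1.14 (copying and transcription), -0.94 (RNA processing), -0.91 (synthetases), -1.05 (biogenesis) and -0.57 (mitophagy). Log2 differences turned by total counts to -0.51 (mt-Co1), -0.32 (mt-Nd4l), -0.49 (mt-Nd4), -0.073 (mt-Nd5), -0.18 (mt-Nd6), -0.55 (mt-Cytb), -0.39 (mt-Tp), -0.038 (Uqcr11) and -0.40 (Slirp). mt-Atp8 turned to 0.040 with RLE and with DESeq2, mt-Cytb to -0.014 with no filter and mt-Tc to 0.016 with no covariate.

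With the animal as a replicate block 2 members were called lower (mt-Rnr1 and mt-Rnr2) and 1 higher (mt-Nd5); among the other single genes recomputed under every setting it changed the call of Tfb2m. Flipping the signs of the 4 paired animal differences cannot give a p under 0.125, which the values for all members (-0.822), rRNA (-0.0971), protein-coding genes (-0.725) and the mt-Nd6 ratio (0.401) reached; that test cannot pass the threshold with 4 pairs, and a lost call under it is no sign of a weaker difference.

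With each library left out in turn, 7269 to 8106 genes, 0 to 2 higher and 0 to 1 lower members were called, and 0 to 0 for the interaction with sex. The share of all members differed by -0.909 to -0.693, of protein-coding genes by -0.811 to -0.596, of rRNAs by -0.112 to -0.0822 (exact permutation p 0.0286 to 0.0571, over 0.05 without High Female2, Male1 or Male2) and of tRNAs by -0.000439 to -0.000178 (exact permutation p 0.0286 to 0.229, under 0.05 without High Female1). Without High Female1 no overlap of the tRNA share remains, so that p was fixed at its smallest value. Log2 ratios ranged from -0.614 to -0.346 (rRNA to protein-coding), -0.0349 to 0.263 (tRNA to protein-coding), 0.290 to 0.466 (mt-Nd6; exact permutation p up to 0.0857), -0.369 to -0.231 (mt-Rnr1 to mt-Rnr2) and 0.0852 to 0.182 (complex I to IV). For mt-Rnr1 to mt-Rnr2 the exact permutation p ran from 0.0286 to 0.143. It was under 0.05 only without Low Male2, where no overlap remains. mt-Co1 ranged from -0.025 to 0.12, mt-Nd4 from -0.085 to 0.16, mt-Cytb from -0.097 to 0.10 and mt-Atp8 from -0.26 to 0.14. Directions turned for mt-Tc without Low Male2 (0.07), High Female2 (0.0086) or High Male2 (0.25), mt-Co1 and mt-Nd4 without High Female2, mt-Atp8 without Low Male1, High Female1 (0.077), High Male1 (0.015) or High Male2 (0.048), and mt-Cytb without Low Female1 (-0.013), Low Female2 (-0.0034) or High Female2. Of 46 single genes, 15 had the same direction and call under every setting in which they were tested (mt-Te was not tested with at least 10 counts in every library). Depth was 175 to 383 tRNA counts per library, and no test addressed its effect.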
